A study of Homo sapiens with 2 samples.

Results

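The 10 genes described here encode receptors that detect microbial molecules in epithelial cells, and the adaptor proteins that pass their signals on: TLR2, TLR3, TLR4, TLR5, RIGI, IFIH1, NOD1, MYD88, TICAM1 and MAVS. They were chosen by name, and every probe set that the platform annotation assigns to them was used, which gave 23 probe sets for 10 of the 19775 genes named on the array. Gene expression was measured with Affymetrix arrays in Calu-3, an established cell line from a human lung adenocarcinoma, used as a model of airway epithelium. The stretched culture was grown on flexible collagen I plates and strained cyclically for 18 h in medium with 10% serum, between 0.7% and 20% stretch as a sine wave, 2 s on and 2 s off. The culture without stretch carries the same time in its label. The labels name no microbial ligand or cytokine for either culture. Each condition had 1 array, so there is no replicate and no test between conditions. Every difference below compares these 2 arrays, the number of arrays limits the precision, and culture, labelling and condition cannot be told apart.

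Pattern receptors bind conserved microbial structures such as double-stranded RNA, flagellin, lipoproteins or cell wall fragments. Toll-like receptors sit in membranes and signal through the adaptors MyD88 and TRIF (the TICAM1 product), whereas the helicases RIG-I (the RIGI product) and MDA5 (the IFIH1 product) detect viral RNA in the cytosol and signal through MAVS on mitochondria. Both arms lead to the activation of NF-kB and of interferon regulatory factors, and thus to cytokines and interferons. Airway epithelium uses them as its first defence against respiratory viruses and bacteria, and interferon is known to raise the transcripts of several of the sensors themselves.

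The 10 genes divided into 3 that were at least 2-fold lower in the stretched culture, 6 that differed by less than 2-fold and 1 (TLR4) that was not measured. The 3 lower genes were the double-stranded RNA receptor TLR3, the flagellin receptor TLR5 and the cytosolic RNA sensor IFIH1. RIGI, a helicase related to IFIH1, was not lower in its bright probe sets, and the adaptors MYD88, TICAM1 and MAVS differed by at most 0.36 on the log2 scale. None of the 10 was at least 2-fold higher. A gene was called measured when the signal of its brightest probe set (the highest mean log2 signal) exceeded the array median, here called the floor, in at least 1 array. The floor was an intensity of 28.4 in the stretched array and 28.7 in the non-stretched array. Lower values were set to it before the log2 difference, stretched minus non-stretched, was taken. Among all 13453 measured genes, 7.49% passed 2-fold on the lower side and 7.78% on the higher side by the same rule. With 9 measured genes these shares are a background for reading the count of 3, and no test of the list was made. The absence of a gene at least 2-fold higher is near the share on that side. The median difference of the 9 was -0.27, beside 0.01 for all measured genes. By single probe sets, 4 of the 16 measured were at least 2-fold lower, beside 6.48% among the 24977 measured probe sets of named genes. The 4 include both measured TLR3 probe sets and come from the same 3 genes.

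To show the stretches of DNA that precede the 3 lower genes and RIGI, the RefSeq windows (build GRCh38.p14) from 250 bases before to 10 bases after each gene's start are printed on the gene's strand. Capitals mark matches to the core of an interferon response element (GAAA, 2 bases of any kind, then GAAA) or to a form of NF-kB site (GGGA, any base, TT, any base, then CC), each searched on both strands. The windows lie at chr4:186068906-186069165 (plus strand), chr1:223143239-223143498 (minus strand), chr2:162318675-162318934 (minus strand) and chr9:32526187-32526446 (minus strand).
TLR3: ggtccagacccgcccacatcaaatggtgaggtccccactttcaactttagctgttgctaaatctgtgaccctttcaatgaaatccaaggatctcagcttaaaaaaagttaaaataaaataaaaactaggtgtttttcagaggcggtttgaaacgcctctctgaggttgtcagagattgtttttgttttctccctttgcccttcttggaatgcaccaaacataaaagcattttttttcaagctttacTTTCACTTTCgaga
TLR5: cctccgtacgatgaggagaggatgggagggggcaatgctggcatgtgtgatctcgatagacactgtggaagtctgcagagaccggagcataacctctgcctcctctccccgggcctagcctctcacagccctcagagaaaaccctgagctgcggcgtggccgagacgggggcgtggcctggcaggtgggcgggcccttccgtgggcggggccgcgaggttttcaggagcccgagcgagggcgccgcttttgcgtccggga
IFIH1: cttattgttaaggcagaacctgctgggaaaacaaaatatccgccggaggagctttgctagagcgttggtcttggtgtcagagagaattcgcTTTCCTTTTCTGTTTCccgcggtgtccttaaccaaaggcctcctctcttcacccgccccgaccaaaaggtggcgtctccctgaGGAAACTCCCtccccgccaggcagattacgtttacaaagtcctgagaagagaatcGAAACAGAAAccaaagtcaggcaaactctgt
RIGI: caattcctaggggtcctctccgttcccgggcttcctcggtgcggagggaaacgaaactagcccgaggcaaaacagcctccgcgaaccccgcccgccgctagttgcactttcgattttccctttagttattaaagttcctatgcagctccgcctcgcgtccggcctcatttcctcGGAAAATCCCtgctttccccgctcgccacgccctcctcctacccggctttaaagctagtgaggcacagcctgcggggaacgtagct

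Counting the first base of the gene as 1 and the base before it as -1, the TLR3 window held 1 interferon element match, at -4 to 6. The IFIH1 window held 3, at -159 to -150, -153 to -144 and -21 to -12, of which the first pair share bases, and it held an NF-kB form at -76 to -67. The TLR5 window held neither. The RIGI window held an NF-kB form at -76 to -67 and no interferon element match with these letters. Of the windows not printed, that of MYD88 held the interferon core at -61 to -52 and that of TICAM1 the NF-kB form at -120 to -111. All 10 genes had a window in the table. The interferon core occurred in 3 of them, beside 3.20% of 35116 promoter windows of this length, and the NF-kB form in 3, beside 1.29%. A match describes letters in these windows, not a bound site.

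Among the receptors for RNA, TLR3 binds double-stranded RNA in endosomes and signals through TICAM1. Its brightest probe set read 14.3 in the stretched array, against 124.3 in the non-stretched array. Its second read 11.6 in the stretched array, against 130.1 in the non-stretched array. In both probe sets the stretched signal was below the floor and the non-stretched signal well above it. The folds are therefore lower bounds: the first probe set was at least 4.38-fold lower (-2.13 on the log2 scale), the second at least 4.59-fold (-2.20). The third TLR3 probe set was below the floor in both arrays and gives no fold.

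IFIH1 encodes MDA5, which binds long double-stranded RNA of replicating viruses. The probe set with signal above the floor read 198.4 in the stretched array, against 524.8 in the non-stretched array. This is 2.65-fold lower (-1.40 on the log2 scale) with both signals above the floor, and 531 measured genes (3.95%) were as low or lower. The other IFIH1 probe sets were below the floor in both arrays, so the difference rests on 1 probe set.

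RIGI encodes RIG-I, which binds RNA with a free triphosphate end. Its brightest probe set read 789.8 in the stretched array, against 640.4 in the non-stretched array, and the next read 420.5 in the stretched array, against 349.2 in the non-stretched array. These differences of 0.30 and 0.27 on the log2 scale are within the SD of 0.36 of a single probe set's difference. That SD came from the brightest pair of probe sets of 5818 genes and covers probe noise, not variation between cultures. The third RIGI probe set, which ends in _x_at and can bind related transcripts, was dimmer and read 39.9 in the stretched array, against 58.6 in the non-stretched array (-0.55). IFIH1 lay 1.71 below RIGI on the scale of log2 differences. Probe noise alone gives such a gap between single probe sets an SD of 0.50, and the spread of gaps between genes was not computed. Both are widely described as interferon-induced; only IFIH1 of this pair passed 2-fold.

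**Figure D1:**
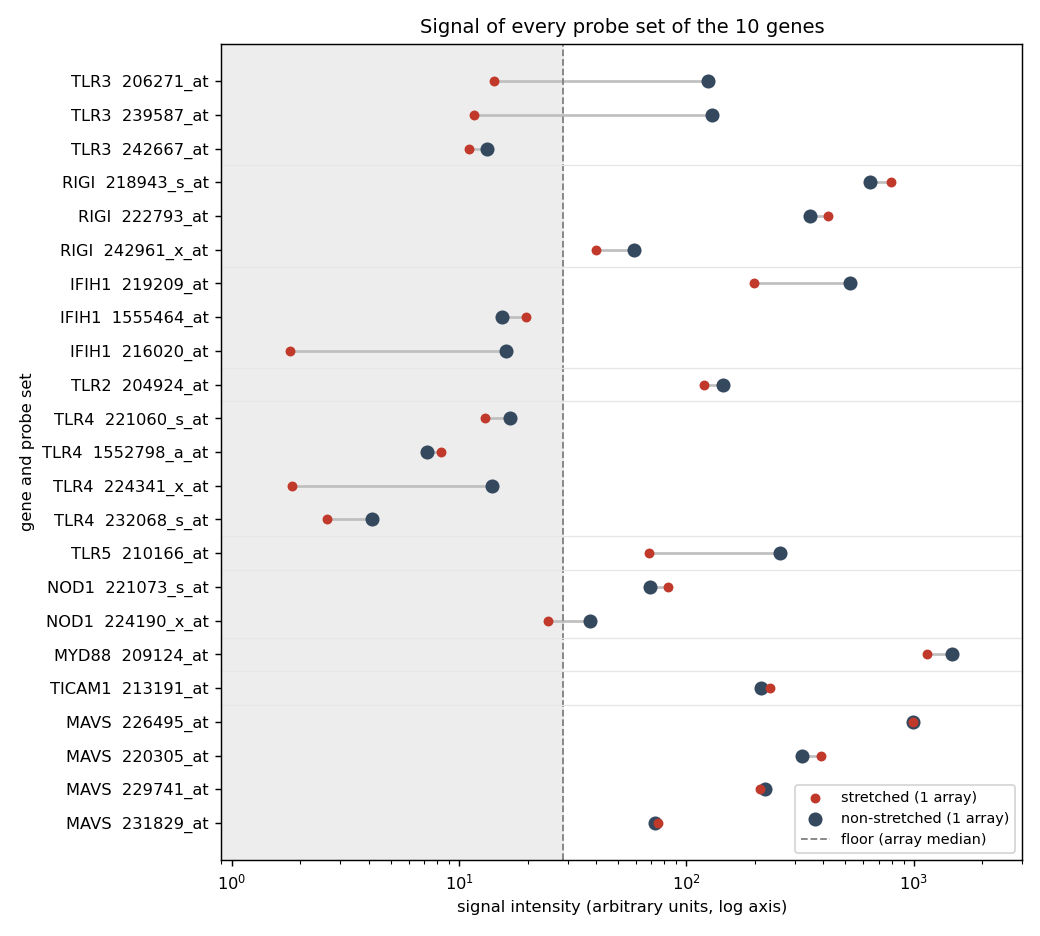
Signal intensity (log axis, arbitrary units) of all 23 probe sets of the 10 genes in the stretched (red) and non-stretched (dark blue) array, 1 array each; the grey area lies below the floor. TLR3, IFIH1 and TLR5 show the widest gaps among probe sets that exceed the floor in at least 1 array, and the brightest MAVS probe set reads 993.0 in the stretched array and 987.6 in the non-stretched array.

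Of the receptors for bacterial products, TLR5 recognises flagellin, the protein of bacterial flagella. Its single probe set read 68.7 in the stretched array, against 258.6 in the non-stretched array, and was 3.77-fold lower (-1.91). Both signals exceeded the floor, and 235 measured genes (1.75%) were as low or lower. TLR2, which recognises bacterial lipoproteins as a dimer with TLR1 or TLR6, also had 1 probe set. It read 119.6 in the stretched array, against 144.4 in the non-stretched array (-0.27), within the probe-set SD. TLR5 lay 1.64 below TLR2 on the scale of log2 differences.

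TLR4, the receptor for lipopolysaccharide, had 4 probe sets, all below the floor in both arrays. They read 13.0, 8.30, 1.85 and 2.62 in the stretched array, against 16.7, 7.24, 14.0 and 4.15 in the non-stretched array. No difference is given for it. NOD1, a cytosolic sensor of a peptidoglycan fragment, read 83.2 in the stretched array, against 69.4 in the non-stretched array (0.26) in its brighter probe set. The dimmer one, ending in _x_at, read 24.6 in the stretched array, below the floor, against 37.7 in the non-stretched array. The NOD1 probe sets thus had opposite signs, 0.26 and a bound of at most -0.41.

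The 3 adaptors stood close to equality. MYD88, used by TLR2, TLR4 and TLR5 and by interleukin-1 receptors, read 1138 in the stretched array, against 1465 in the non-stretched array (-0.36), a difference about as large as the probe-set SD. TICAM1, the adaptor of TLR3 and of internalised TLR4, read 232.5 in the stretched array, against 213.4 in the non-stretched array (0.12). MAVS, the shared adaptor of RIG-I and MDA5, had 4 probe sets above the floor. Its brightest read 993.0 in the stretched array, against 987.6 in the non-stretched array (0.01), and the 4 ranged from -0.07 to 0.28. With so little difference the sign carries no information: that of MAVS turned when the arrays were scaled to a common 75th percentile or the intensity trend was removed. Set beside their adaptors, TLR3 lay at least 2.26 below TICAM1 (its own difference is a bound), TLR5 lay 1.55 below MYD88 and IFIH1 lay 1.41 below MAVS on the scale of log2 differences.

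**Figure D2:**
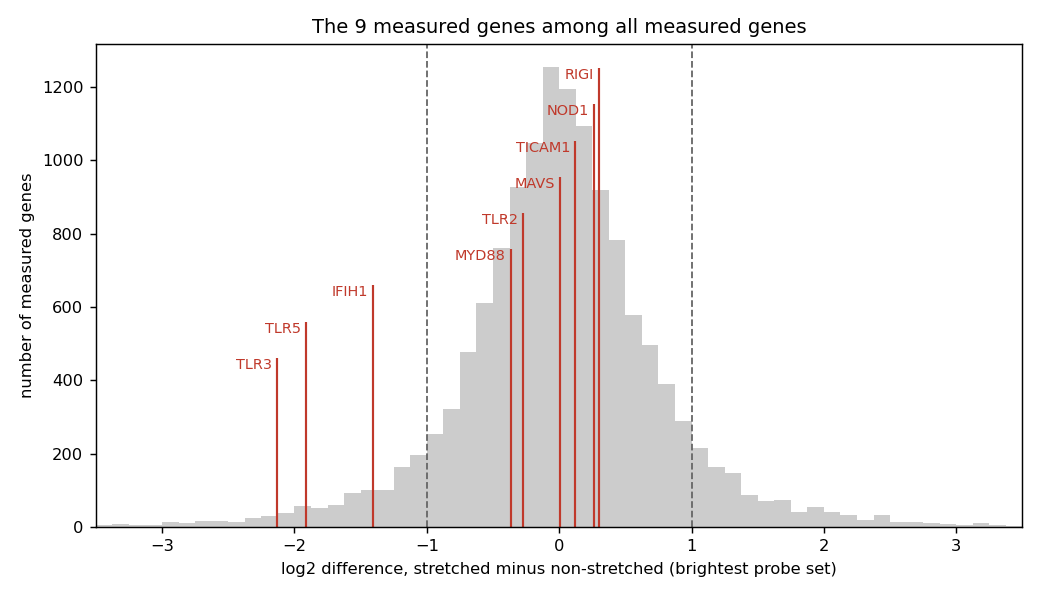
Distribution of log2 differences, stretched minus non-stretched, of 13453 measured genes (grey; bars count genes) with the 9 measured receptor and adaptor genes as red lines, whose heights only separate the labels; dashed lines mark 2-fold. TLR3 (a bound), TLR5 and IFIH1 lie beyond the lower line, and the other 6 lie between -0.36 and 0.30.

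The rest of the pathway was examined in 6 lists of 112 further genes, of which 104 had a probe set naming them alone and 86 were measured. Of the 86, 18 passed 2-fold on the lower side and 1 on the higher side (20.9% and 1.16%, beside the 7.49% and 7.78% of all measured genes), with a median of -0.28. The lists include known interferon-induced and NF-kB target genes and were chosen with earlier results of these arrays known, so the counts are not independent support for a direction. Genes in each list are described by their brightest probe set.

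Among the other Toll-like receptors, co-receptors and chaperones, all 8 measured genes of 13 lay below 0 by their brightest probe set (median -0.41). TLR1, LY96 and LBP counted as measured only through the non-stretched array. With the stretched value set to the floor, their differences could only fall below 0, so the count of 8 is partly fixed by the floor rule. The chaperone gene CNPY3 had another probe set at 1.02. By brightest probe set, 1 gene of the list was at least 2-fold lower (12.5% of those measured, beside 7.49% of all measured genes). This was TLR1, the partner of TLR2, with 20.3 in the stretched array (below the floor) against 57.9 in the non-stretched array, at least 2.04-fold lower. The TLR4 co-receptors CD14 and LY96 were likewise dim: CD14 read 55.1 in the stretched array, against 78.6 in the non-stretched array (-0.51), and LY96 read 11.5 in the stretched array, below the floor, against 43.6 in the non-stretched array.

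Signalling proteins just below the Toll-like receptors were centred on 0 (median 0.02, 8 of 16 below 0). The exceptions at 2-fold were IRAK3, an inhibitory kinase-like protein, and SARM1, a TIR-domain protein with NAD-cleaving activity. IRAK3 read 62.6 in the stretched array, against 138.9 in the non-stretched array (2.22-fold lower), although its other measured probe set was at 0.25. SARM1 read 34.9 in the stretched array, near the floor, against 71.9 in the non-stretched array (2.06-fold lower), with -0.42 in its other probe set.

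Cytosolic nucleic acid sensing genes had 4 of 15 at least 2-fold lower and 1 higher (median -0.04). OAS1, which makes the messenger that activates RNase L when it meets double-stranded RNA, read 159.3 in the stretched array, against 628.7 in the non-stretched array (3.95-fold lower), with -1.58 in its other probe set. IFI16, a DNA-binding protein of the interferon response, read 382.8 in the stretched array, against 918.2 in the non-stretched array (2.40-fold lower), and its 3 probe sets lay between -1.38 and -1.10. STING1, the adaptor of the DNA-sensing arm, was 2.17-fold lower (83.4 in the stretched array, against 180.9 in the non-stretched array). Its other probe set was at -0.64, short of 2-fold. OAS3 was 2.06-fold lower.

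In the opposite direction, CGAS, the DNA sensor upstream of STING1, read 124.0 in the stretched array, against 35.6 in the non-stretched array, and was 3.49-fold higher. Its non-stretched signal lay near the floor and another measured probe set was at 0.25, so the size is uncertain. DHX9 was at 0.29, with 1.37 and 1.63 in its other probe sets. OAS2 was at 0.25, with -1.84 in another probe set. The helpers of RIG-I in this list differed little: the ubiquitin ligases TRIM25 and RNF135 were at -0.08 and -0.04.

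Kinases and transcription factors below MAVS and TICAM1 had a median of -0.05, with 2 of 20 at least 2-fold lower. That is 10%, near the 7.49% of all measured genes. IRF1, an interferon-induced transcription factor, read 430.1 in the stretched array, against 941.0 in the non-stretched array (2.19-fold lower), with -0.65 in its other probe set. IKBKE, a kinase that phosphorylates interferon regulatory factors, read 97.0 in the stretched array, against 195.1 in the non-stretched array (2.01-fold lower), and was at 0.08 in the other probe set. The related kinase TBK1 and its substrate IRF3 were at 0.51 and 0.54, whereas the interferon-induced IRF7 was at -0.95; these 3 were named with their values known.

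NOD-like receptor and inflammasome genes had 4 of 13 at least 2-fold lower, none higher and a median of -0.59. CASP1, the protease that matures interleukin-1 beta, read 147.4 in the stretched array, against 439.0 in the non-stretched array (2.98-fold lower), and its 4 other measured probe sets lay between -2.39 and -1.82. CASP4, which responds to cytosolic lipopolysaccharide, was 2.37-fold lower (663.9 in the stretched array, against 1575 in the non-stretched array), with -0.41 in its other probe set. CASP5 was at least 2.01-fold lower, and SLC15A2, a peptide transporter, was 2.84-fold lower with -0.27 in its other probe set. RIPK2, the kinase directly below NOD1, was at -0.33, named after its value was seen.

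Genes that pattern receptors switch on had 5 of 14 at least 2-fold lower, none higher and a median of -0.68. ICAM1, a leukocyte adhesion molecule, read 179.7 in the stretched array, against 1340 in the non-stretched array, and the chemokine CCL20 read 533.8 in the stretched array, against 2695 in the non-stretched array. TNFAIP3, the ubiquitin-editing inhibitor of NF-kB, was 3.79-fold lower, and the chemokines CXCL2 and CXCL3 were 3.86-fold and 3.52-fold lower. Another CXCL2 probe set, below the floor under stretch and barely over it without stretch, was bounded at -0.03. IL1A and IL1B, which encode interleukin-1 cytokines, lay above 0 at 0.89 and 0.59, named after their values were seen. The other IL1B probe set was at 1.08, past 2-fold on the higher side. IFNB1, the gene of interferon beta, was not above the floor in either array, and IFNL1, of interferon lambda, read 30.9 in the stretched array, against 35.5 in the non-stretched array, both near the floor.

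**Figure D3:**
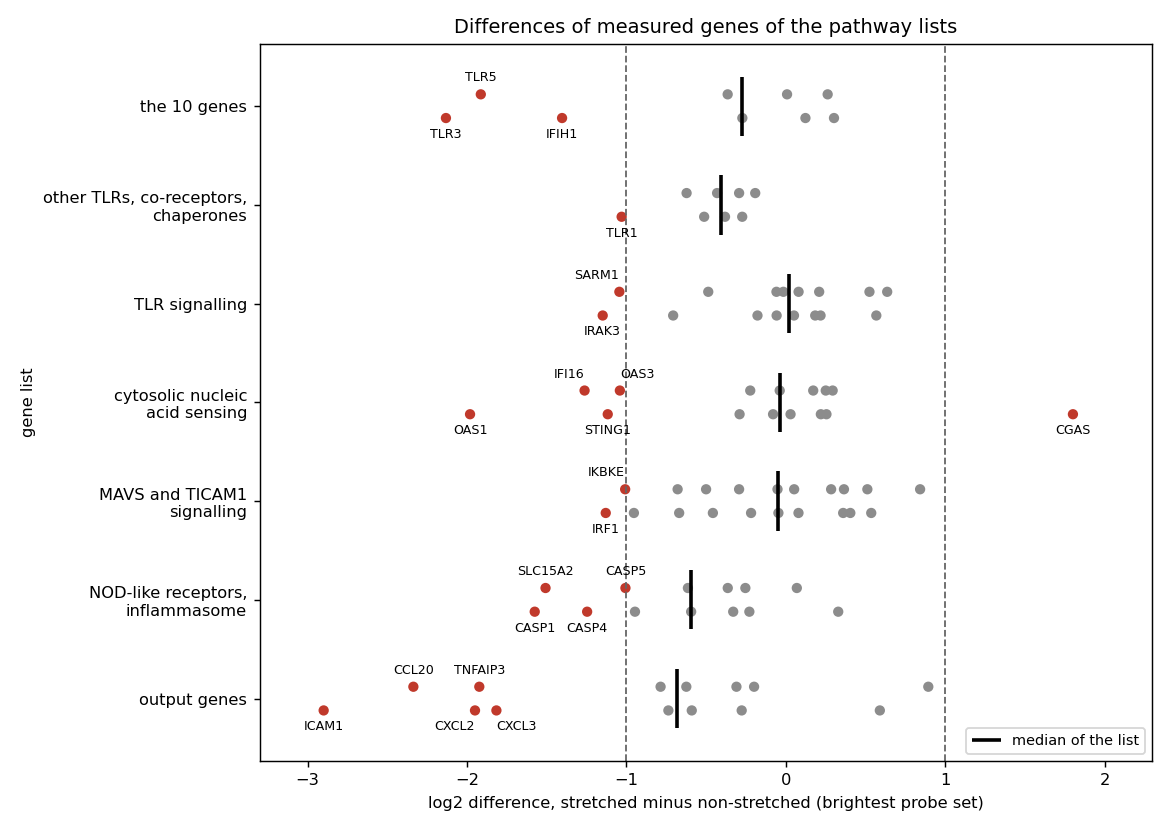
Log2 differences, stretched minus non-stretched, of the measured genes of the 10-gene set and of 6 pathway lists (1 point per gene by its brightest probe set, red and named beyond 2-fold, black bar at each list's median, dashed lines at 2-fold). Points beyond 2-fold lie on the lower side in every list, with CGAS the exception.

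The labelled cell type was checked against its markers. All 9 airway epithelial markers exceeded the floor in both arrays, with a summed signal of 57273 in the stretched array and 61982 in the non-stretched array. Keratins and EPCAM differed by at most 0.22 and CDH1 was at -0.38, while ELF3, MUC1 and CFTR were at -1.86, -1.45 and -1.43. Of 7 leukocyte markers, 3 exceeded the floor in each array (summed signal 1601 in the stretched array and 1347 in the non-stretched array), nearly all of it from LYZ, which airway gland cells also make. PTPRC, the pan-leukocyte marker, was below the floor in both. The fibroblast list summed to 194.8 in the stretched array and 244.7 in the non-stretched array, and the endothelial list to 89.4 in the stretched array and 92.4 in the non-stretched array, with no member of these 3 lists differing 2-fold. In such bulk RNA, fewer cells expressing a gene and less RNA per cell cannot be told apart.

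Whole-array scaling moved these differences little. The medians of the arrays differed by -0.02 on the log2 scale and the 75th percentiles by 0.11, while 18 hybridisation spike-in probe sets had a median difference of -0.11 (range -0.23 to -0.03). Differences of the size seen for MYD88, TLR2, TICAM1, RIGI and NOD1 are therefore close to what scaling and probe noise allow, while those of TLR5 and IFIH1 were 5.37 and 3.94 times the probe-set SD, and the bound of TLR3 was at least 5.99 times it. Whether the differences of TLR5, IFIH1 and TLR3 exceed variation between cultures at all was not measured. Removing the floor placed TLR3 at -3.12, from stretched signals below the array median. The 75th percentile as floor left 5 of the genes measured, and only IFIH1 still reached 2-fold lower.

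**Figure D4:**
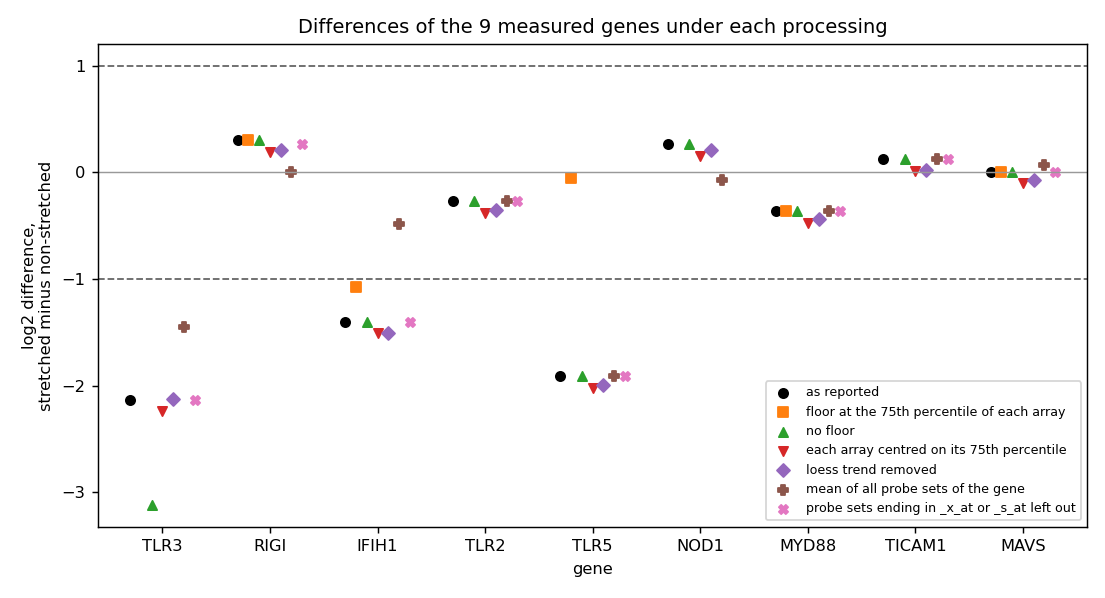
Log2 difference, stretched minus non-stretched, of the 9 measured genes under the reported processing (black) and 6 alternatives (coloured symbols; dashed lines at 2-fold). TLR3 spans -3.12 to -1.45 and IFIH1 -1.51 to -0.48, and TLR5 is near 0 only with the floor at the 75th percentile.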

How the data were processed

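The deposited table holds, per the labels, Affymetrix measurements of biotin-labelled cRNA from 6 µg total RNA, as 1 linear signal intensity per probe set and array for 54675 probe sets. The summarisation method, scaling and detection calls behind the intensities were not stated in the labels or the file (not given in the sources used here), and the values were used as deposited. Probe sets came with 1 gene (41091), several genes (1801, not used for naming) or none (11721) in the platform annotation, updated by gene ID to RefSeq symbols (GRCh38.p14, names only). All 10 genes and 104 of 112 list genes had a probe set of their own.

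Values below each array's 50th percentile (62 control probe sets left out) were set to it, log2 differences were taken, and 2-fold was the threshold. With 1 array per group no test was made. Genes named from the lists were those at least 2-fold different, up to 6 a list; further list genes in the text (co-receptors, RIG-I helpers, kinases, cytokines) were chosen after their values were seen. The members and lists were chosen with earlier results of these data known. The 6 alternatives listed in the closing section were run (Python 3.11.15, pandas 2.3.3, statsmodels 0.14.6).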

Additional observations from a re-analysis of the deposited data

How the results depend on the processing

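With 1 array per group no replicate can be left out, and no paired analysis was possible because each group has 1 sample. Of the 10 genes, 3 were at least 2-fold lower as reported, with no floor, after centring on the arrays' 75th percentiles (which moved the median of all genes to -0.10, from 0.01), with the loess trend removed, and after leaving out the _x_at and _s_at probe sets. The count was 2 with probe sets averaged, where IFIH1 was at -0.48 because its dim probe sets enter at the floor. It was 1 of 5 measured under a floor at the 75th percentile, where TLR3 was not measured and TLR5 was bounded at -0.05. The share of all measured genes at least 2-fold lower was 7.49% as reported, 4.85% with probe sets averaged and 4.59% under the higher floor. That share was 9.34% with no floor, 9.05% after centring, 8.45% with the loess trend removed and 7.59% without _x_at and _s_at probe sets. No alternative put any of the 10 at least 2-fold higher. The share of all measured genes at least 2-fold higher ran from 6.15% with probe sets averaged to 8.85% with no floor. With at most 9 of the 10 measured, a count of 0 is near such a share. Their median ranged from -0.38 to -0.05. The further pathway genes at least 2-fold lower, 18 of 86 as reported, were 8 of 62 measured under that higher floor. They were 9 of 86 with probe sets averaged and 13 of 64 without _x_at and _s_at probe sets. Under the remaining settings they were 20 or 21 of 86. The 1 higher gene became 0 under the higher floor and again when _x_at and _s_at probe sets were left out. Of 49 recomputed differences of single genes, 45 moved by less than the probe-set SD of 0.36. Many could not move, such as genes with 1 probe set when probe sets were averaged, or genes above the floor when it was removed. Settings that left a gene unmeasured are not counted. The signs of MAVS (-0.10 to 0.07) and NOD1 (-0.07, with a floored probe set averaged in, to 0.26) depended on the setting.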
